A study of Mus musculus with 12 samples.

Results

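The cytosolic chaperones and heat shock proteins examined here are 39 genes of the 55487 in each count table, chosen by gene name under a rule that uses no measured value, though the list was drawn up with earlier results of these data known. They comprise 8 subunits of the CCT (TRiC) chaperonin (Tcp1, Cct2, Cct3, Cct4, Cct5, Cct6a, Cct7 and Cct8), 5 prefoldin subunits (Pfdn1, Pfdn2, Pfdn4, Pfdn5 and Vbp1) and 3 Hsp70 genes (Hspa8, Hspa1a and Hspa1b). The other members are 5 exchange factors of Hsp70 (Hspa4, Hspa4l, Hsph1, Bag3 and Hspbp1), 6 J-domain (Hsp40) genes (Dnaja1, Dnaja2, Dnajb1, Dnajb4, Dnajb6 and Dnajc7) and 2 Hsp90 genes (Hsp90aa1 and Hsp90ab1). The set closes with 7 co-chaperones (Stip1, St13, Ahsa1, Cdc37, Fkbp4, Ptges3 and Chordc1), 2 small heat shock genes (Hspb1 and Hspb8) and the transcription factor gene Hsf1. All 39 symbols were found in both tables, and 37 passed the filter on low counts in every comparison. Hspa1a and Hspb8 did not pass it.

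The material was B16F10, a mouse melanoma line, read by sequencing of ribosome-protected fragments (RPF) and of total RNA. The cells carried a control short hairpin RNA (shCtr, genotype WT) or hairpin 2 against Osgep (shOSGEP, genotype KD OSGEP), and all of them received cycloheximide before lysis. Each genotype had 3 replicates, described in the study's methods as separate transductions, and RPF and total RNA libraries of the same genotype and number were treated as 1 cell sample (the labels give only the shared number), which gave 12 libraries in 4 groups of 3. Osgep encodes the catalytic subunit of KEOPS, the complex that places t6A beside the anticodon of tRNAs reading codons that start with A (ANN codons). The study followed protein aggregation in these cells, and the comparisons below ask whether chaperone RNA or chaperone footprints rose with loss of Osgep, as in a heat shock response. The cells were puromycin-selected bulk populations, and a single hairpin sequence represents the knockdown.

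In the cytosol, Hsp70 proteins bind exposed hydrophobic stretches of unfolded chains, J-domain proteins deliver the clients, and exchange factors release them. CCT and prefoldin serve actin, tubulin and other clients that fold in a closed chamber, and Hsp90 with its co-chaperones matures kinases and steroid receptors. When unfolded protein accumulates, HSF1 is freed from chaperones, forms trimers and activates Hsp70, Hsp90, Hsp40, Hsp110 and small heat shock genes through heat shock elements. The 12 members known as targets of that response are Hspa1a, Hspa1b, Hsph1, Hspa4l, Hsp90aa1, Dnaja1, Dnajb1, Dnajb4, Hspb1, Hspb8, Bag3 and Chordc1, and they are called the heat-inducible members below.

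Heat shock elements are built from GAA units in alternating orientation, and the windows below show how directly the members carry them. Promoter windows came from RefSeq (GRCm38.p6), and 32 of the 39 members had one; Cct4, Pfdn1, Hspa8, Hsp90aa1, Hsp90ab1, St13 and Hsf1 did not. The 250 bases before each RefSeq start, of which a gene can have several, were searched for a facing or outward pair of units, GAANNTTC or TTCNNGAA, each of which reads the same on both strands. A pair was found in 11 of 32 members and in 6 of 11 heat-inducible members (Hspa1a, Hspa1b, Hsph1, Dnaja1, Dnajb4 and Hspb1), against 14.5% of 27025 genes. The longer run of 3 units, a pair extended by a further unit at the same spacing and so made of 2 overlapping pairs, was found in 0.514% of genes and among the members only before Dnajb6. The pair was searched after the longer run had been found in so few members. In the windows of 5 members, printed 5′ to 3′ along the gene's strand, capitals mark the pairs.
Hspa1b (chr17:34959315-34959362, minus strand): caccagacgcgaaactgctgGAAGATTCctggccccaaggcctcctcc
Hspb1 (chr5:135887782-135887849, plus strand): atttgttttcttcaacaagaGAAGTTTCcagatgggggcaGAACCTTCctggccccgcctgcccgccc
Hsph1 (chr5:149636342-149636389, minus strand): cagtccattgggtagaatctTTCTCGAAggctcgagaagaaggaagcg
Dnaja1 (chr4:40722324-40722371, plus strand): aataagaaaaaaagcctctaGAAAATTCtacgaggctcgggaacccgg
Dnajb6 (chr5:29735832-29735884, plus strand): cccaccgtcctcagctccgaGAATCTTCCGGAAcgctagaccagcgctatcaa
The Hspa1a window held the same bases as that of Hspa1b at chr17:34972233-34972280. Hspb1 held 2 separate pairs, and Dnajb6, which is not among the heat-inducible members, held the run of 3 units. The pairs of Hsph1, Dnaja1 and Dnajb6 precede a RefSeq start but lie inside the gene's span in GENCODE M21. So do those of Dnajb4 and Cct2, whose windows are not printed. A match describes these letters only and says nothing of binding in these cells.

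Depth and library quality bear on every value below. Total RNA libraries held 46.7 to 81.1 M counts and RPF libraries 12.9 to 40.3 M, of which 4.42 to 17.0 M fell on protein-coding genes. Osgep, the targeted gene, stood at 13.9, 15.7 and 15.3 CPM (counts scaled to TMM library size) in shCtr and 0.589, 6.92 and 6.77 in shOSGEP total RNA, so 4.25, 44.0 and 44.4% was left in replicates 1, 2 and 3. The fitted change was −1.65 (95% interval −3.47 to 0.17), with an edgeR adjusted p of 0.9745. Its RPF level was 7.72, 7.27 and 4.71 CPM in shCtr and 4.87, 3.81 and 2.36 CPM in shOSGEP, with 63.1, 52.3 and 50.1% left. Replicate 1 thus had the least Osgep left by total RNA and the most by RPF. Each replicate pair had less Osgep in shOSGEP in total RNA and in RPF, without overlap of the groups in total RNA alone. The replicate 1 shOSGEP libraries stood apart in other ways. The 7 melanocyte markers (Tyr, Tyrp1, Dct, Pmel, Mlana, Mitf and Sox10), all detected in every library, summed to 2655 CPM in shOSGEP replicate 1 total RNA against 9665 to 16836 CPM in the other 5 libraries. Of the fibroblast markers, Col1a1 reached 15.3 CPM in that library and 0.537 to 2.69 CPM in the others, while Col3a1 was at 0 in every total RNA library and Dcn at 0.062 CPM or less. Markers of immune, keratinocyte and endothelial cells summed to at most 0.676 CPM in any library. In RPF, 67.6% of the counts of shOSGEP replicate 1 fell on rRNA, against 26.5 to 44.3% elsewhere. The part of these differences in the chaperone values was not tested, and Hspa1b, Bag3, Hsph1, Hspa4l, Dnajb1, Dnajb4, Ptges3 and Hspb1 are given with and without the shOSGEP replicate 1 libraries.

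The constitutive Hsp90 and Hsp70 genes were the most abundant members. Per length, on the TPM scale (counts divided by exon length and scaled to 1 sum in every library) in shCtr total RNA, Hsp90ab1 (the constitutive Hsp90) was highest at 1533 ± 248 (SD, n = 3), followed by Hspa8 (the constitutive Hsp70) at 1333 ± 275 and the stress-linked Hsp90aa1 at 739.5 ± 206. The first 2 differ by less than their SD. The lowest of the genes that passed the filter were Hspa1b at 6.87 ± 1.76, Dnajb4 at 5.53 ± 1.85, Hspb1 at 4.58 ± 3.0 and Hspa4l at 3.17 ± 0.969 TPM. Apart from Hsp90aa1, which ranked 3, the heat-inducible members ranked 23 or lower of the 39. In shOSGEP the order at the top was the same, with 1508 ± 263 TPM for Hsp90ab1, 1228 ± 429.9 for Hspa8 and 681 ± 256 for Hsp90aa1. Together the 39 genes took 1.4 ± 0.107% of the protein-coding and member counts in shCtr total RNA and 1.36 ± 0.197% in shOSGEP. In RPF the shares were 1.58 ± 0.266% and 1.6 ± 0.336%, a difference within the SD in both assays. The plot of levels per length sets both genotypes side by side.

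**Figure D1:**
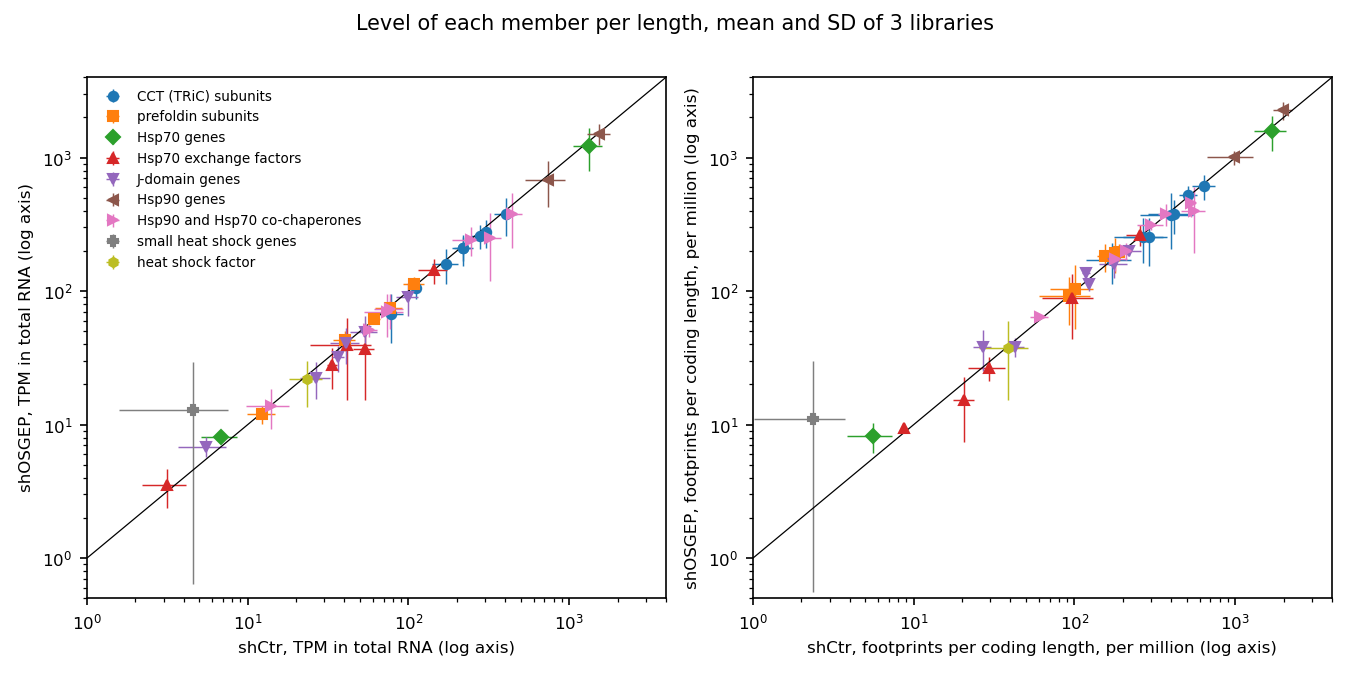
Level of each member in shOSGEP against shCtr on log axes, as TPM in total RNA (left) and as footprints per coding length, scaled as TPM is (right); points are means of 3 libraries, lines the SD, the diagonal equality, and only members above 1 in both genotypes are drawn. Hsp90ab1, at 1533 and 1508 TPM, lies on the diagonal, while Hspb1, at 4.58 and 12.8 TPM, lies off it with an SD larger than its shOSGEP mean, whose lower end is cut at 5% of the mean.

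No member passed the test in any comparison. Of the 37 tested, edgeR's quasi-likelihood test called 0 in total RNA, 0 in RPF and 0 in translational efficiency (RPF relative to the total RNA of a gene) at an adjusted p of 0.05, where it called 0.0% of all 14516, 13529 and 12560 genes. At an unadjusted p under 0.05 the members again numbered 0 in each, against 1.78%, 1.03% and 0.135% of all genes. DESeq2 also called 0 members, and 8, 1 and 0 of all genes. The smallest edgeR adjusted p over all genes was 0.9745, 0.9998 and 1.0. In such bulk libraries, fewer cells of a kind and less RNA per cell cannot be told apart. Fitted changes were below 0 for 23 of 37 members in total RNA, 24 in RPF and 20 in efficiency, against 46.9, 45.1 and 50.4% of all genes. These counts depended on single libraries. Without shOSGEP replicate 1 they were 10 in total RNA and 32 in RPF, and without shOSGEP replicate 3 they were 27 and 9. The medians over all genes in these runs lay between −0.0153 and −0.0004. The median log2 change of the members was −0.05 in total RNA, −0.049 in RPF and −0.01 in efficiency, beside medians over all genes of 0.021, 0.045 and −0.002. For the 10 heat-inducible members tested these medians were −0.01, 0.017 and 0.015.

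The precision differed between the assays. In total RNA the 95% intervals of the fitted changes had a median half-width of 0.48 on the log2 scale, and 33 of 37 intervals lay within a 2-fold change in either direction. The upper limit reached a 2-fold rise for 2 members, Hsph1 and Hspb1. In RPF the median half-width was 0.88, and 17 of 37 intervals lay within a 2-fold change, while 10 reached a 2-fold rise. An increase of 2-fold was therefore outside the interval for 35 of 37 members in RNA, and inside it for 10 members in RPF.

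**Figure D2:**
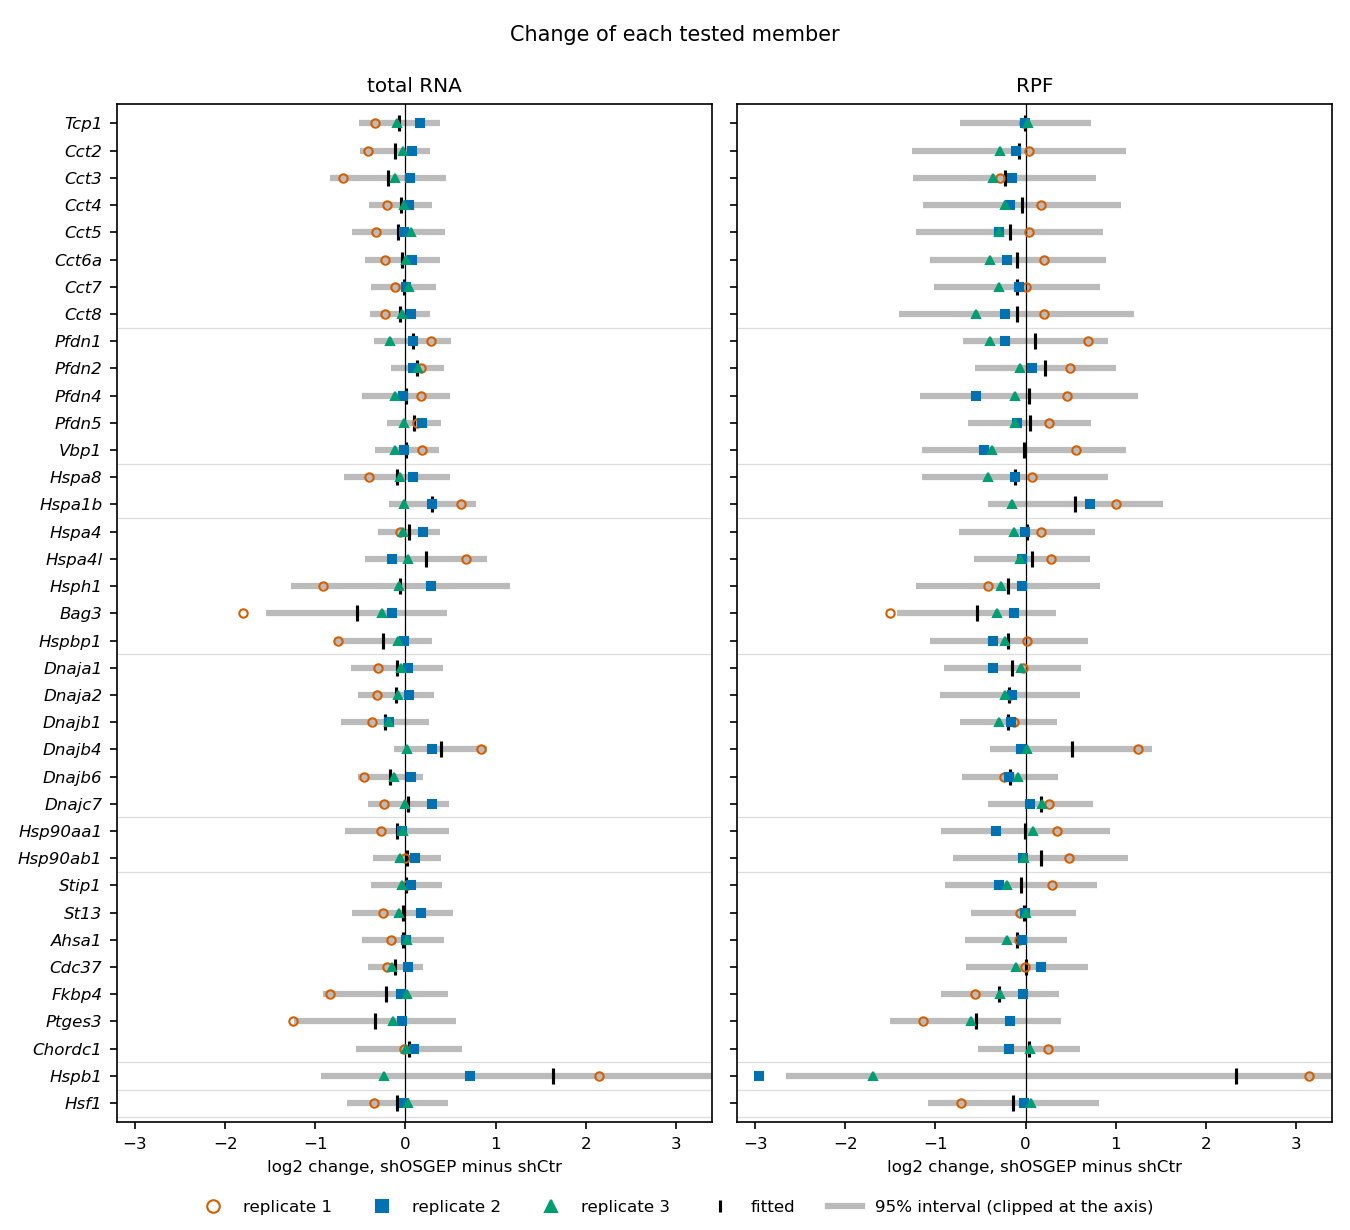
Log2 change (shOSGEP minus shCtr) of each of the 37 tested members in total RNA (left) and RPF (right), with 1 symbol per replicate number, a black tick for the fitted change and a grey bar for its 95% interval; grey lines separate the functional groups. In total RNA the symbols of replicates 2 and 3 lie between −0.26 and 0.30 for every member but Hspb1, while replicate 1 reaches from −1.80 (Bag3) to 2.15 (Hspb1).

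More members were over 0.5 apart between the genotypes in replicate 1 than in replicates 2 and 3. In total RNA, log2 CPM of 10 of 37 members was over 0.5 apart in the replicate 1 libraries, against 47.6% of all genes. Hspb1, Dnajb4, Hspa4l and Hspa1b were higher there, and Bag3, Ptges3, Hsph1, Fkbp4, Hspbp1 and Cct3 lower. In replicate 2 only Hspb1 passed 0.5, against 15.1% of all genes, and in replicate 3 the number was 0, against 13.3%. In RPF 9, 3 and 3 members were past 0.5 in replicates 1, 2 and 3, against 54.3, 22.4 and 26.4% of all genes. Without the shOSGEP replicate 1 library the median change of the members in total RNA was 0.065 and the medians in RPF and efficiency were −0.227 and −0.279, so each moved by more than its distance from 0.

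**Figure D3:**
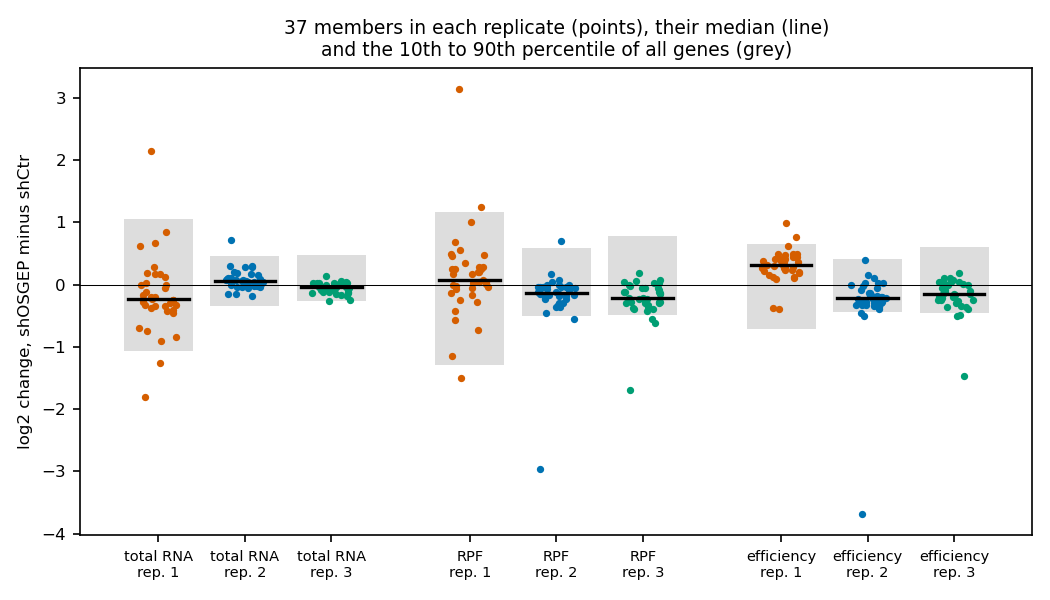
Log2 change (shOSGEP minus shCtr) of the 37 members by replicate number in total RNA, RPF and translational efficiency; each point is a member, the black line their median, and grey boxes run from the 10th to the 90th percentile of all genes tested. Between 34 and 36 of the 37 members lie inside the grey box in every column, and the members' median in efficiency is 0.318 in replicate 1 and −0.21 and −0.151 in replicates 2 and 3.

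The Hsp70 genes were dominated by the constitutive form. Hspa8 stood at 2324, 2916 and 2837 CPM in shCtr and 1756, 3104 and 2718 CPM in shOSGEP total RNA. Its RPF levels were 973, 1240.5 and 727 CPM in shCtr and 1024, 1142 and 545 CPM in shOSGEP. The groups overlapped in both assays, with fitted log2 changes of −0.09 (95% interval −0.68 to 0.5) in total RNA and −0.12 (95% interval −1.15 to 0.92) in RPF. Hspa1b, the strongly heat-inducible Hsp70, was low at 7.67, 9.17 and 10.1 CPM in shCtr and 11.8, 11.3 and 10.1 CPM in shOSGEP total RNA. In RPF it stood at 3.38, 2.3 and 3.85 CPM against 6.85, 3.81 and 3.45 CPM. Replicate 1 of shOSGEP was the highest library in both assays, and the replicate 3 libraries of the genotypes were close. The fitted changes were 0.3 (95% interval −0.18 to 0.78) and 0.55 (95% interval −0.42 to 1.53), with edgeR adjusted p of 0.9745 and 0.9998, and without the shOSGEP replicate 1 libraries they were 0.24 and 0.18. Set against Hspa8 within the same library, a comparison chosen after the values were seen, Hspa1b counts came to 0.33, 0.314 and 0.358% of Hspa8 counts in shCtr total RNA and 0.674, 0.365 and 0.372% in shOSGEP.

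Hspa1a, the neighbouring and nearly identical inducible gene (chr17:34969190-34972156, GRCm38), had 0, 0 and 0 counts in shCtr total RNA and 3, 0 and 3 in shOSGEP. A count of 0 allows up to 0.051 to 0.062 CPM in the shCtr libraries, counting error only, so that no fold was computed. In RPF it had 0, 0 and 4 counts in shCtr and 0, 0 and 5 in shOSGEP. Of the 28-base stretches of Hspa1a, 66.2% also occur in other genes, mostly Hspa1b (chr17:34956436-34959238), and how reads with several matches were counted is not stated. Summing both genes as 1 left the changes at 0.31 in total RNA and 0.56 in RPF. Hspa8 shares 77.9% of its 28-base stretches with 14 other genes, most of all a processed pseudogene, so its counts are uncertain in the same way.

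Among the exchange factors Bag3 differed most between replicates. Bag3, a stress-induced co-factor that links Hsp70 to autophagy, stood at 60.8, 67.3 and 65.3 CPM in shCtr and 17.4, 60.7 and 54.5 CPM in shOSGEP total RNA. In RPF the values were 10.9, 9.64 and 11.4 CPM and 3.8, 8.82 and 9.17 CPM. Every shOSGEP library was below every shCtr library in both assays, by 0.1 CPM in total RNA replicate 2 against shCtr replicate 1 and by far more in replicate 1. The change was −0.54 (95% interval −1.55 to 0.46) in total RNA and −0.54 (95% interval −1.43 to 0.34) in RPF, with edgeR adjusted p of 0.9745 and 0.9998. It was −0.17 and −0.26 without the shOSGEP replicate 1 libraries. Bag3 was the member with groups apart in the lower direction in total RNA, as 3.09% of all genes were, and with Fkbp4 it was 1 of 2 in RPF, as 2.64% of all genes were. In the higher direction 0 members stood apart in RPF, against 2.43% of all genes. Heat shock is known to raise Bag3.

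Hsph1, the main inducible Hsp110, had 87.9, 158 and 172 CPM in shCtr and 46.8, 192 and 164 CPM in shOSGEP total RNA. Its RPF levels were 52.9, 103 and 65.7 CPM and 39.6, 99.9 and 54.5 CPM. Replicate 1 was the lowest of its group in each genotype and assay, and the changes within replicates were −0.91, 0.28 and −0.07 in total RNA. The fitted changes were −0.06 (95% interval −1.27 to 1.16) and −0.19 (95% interval −1.21 to 0.83), and 0.34 and 0.06 without the shOSGEP replicate 1 libraries. Hspa4l, another Hsp110-class gene, stood at 16.7, 14.7 and 20.8 CPM against 26.6, 13.2 and 21.2 CPM in total RNA and at 6.7, 6.85 and 6.11 CPM against 8.17, 6.66 and 5.86 CPM in RPF, with only shOSGEP replicate 1 above the other libraries. Its fitted changes were 0.23 (95% interval −0.45 to 0.9) and 0.07 (95% interval −0.57 to 0.71), and −0.02 and −0.08 without the shOSGEP replicate 1 libraries. Hspa4, the constitutive Hsp110-class gene, had fitted changes of 0.04 in total RNA and 0.02 in RPF. Hspbp1, which also releases nucleotide from Hsp70, had −0.25 and −0.19. None passed the test.

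Of the J-domain genes, Dnajb1 (the inducible Hsp40 that partners Hsp70) had 34.0, 44.8 and 42.1 CPM in shCtr and 26.3, 39.6 and 37.2 CPM in shOSGEP total RNA. Its RPF levels were 11.8, 14.0 and 12.9 CPM against 10.8, 12.6 and 10.5 CPM. It was lower in shOSGEP in 3 of 3 replicates in each assay, although the groups overlapped, and the fitted changes of −0.23 (95% interval −0.71 to 0.26) and −0.19 (95% interval −0.73 to 0.35) did not pass the test. They were −0.08 and −0.17 without the shOSGEP replicate 1 libraries. Dnajb4 had a fitted change above 0 and the smallest unadjusted p of the members in total RNA, 0.119 by edgeR. Its levels were 19.9, 19.9 and 27.7 CPM in shCtr and 35.7, 24.5 and 28.1 CPM in shOSGEP total RNA. In RPF they were 7.55, 9.21 and 7.57 CPM and 18.1, 8.92 and 7.67 CPM. The difference was largest in replicate 1, and the replicate 3 libraries of the genotypes were nearly equal. The fitted changes were 0.39 (95% interval −0.13 to 0.9) and 0.51 (95% interval −0.39 to 1.4), and 0.22 and 0.02 without the shOSGEP replicate 1 libraries.

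Dnaja1, a farnesylated J-domain partner of Hspa8, had 188, 245 and 221 CPM in shCtr and 152, 250.2 and 213 CPM in shOSGEP total RNA. Its footprints came to 86.9, 92.1 and 55 CPM and 85.1, 71.9 and 53.2 CPM, with the groups overlapping in both assays. Dnajc7, which bridges Hsp70 and Hsp90, had 86.4, 91.5 and 100.4 CPM against 73.0, 112 and 100.5 CPM in total RNA and 55.8, 56.7 and 45.0 CPM against 66.8, 58.8 and 51.1 CPM in RPF. Its RPF level was higher in 3 of 3 replicates, by 0.26, 0.05 and 0.18 on the log2 scale, and the fitted change was 0.17 (95% interval −0.42 to 0.75). Dnaja2 and Dnajb6 had fitted total RNA changes of −0.1 and −0.17 and RPF changes of −0.18 and −0.17.

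Neither Hsp90 gene passed the test. Hsp90ab1 stood at 2029.8, 2236 and 2229 CPM in shCtr and 2024, 2418 and 2139.7 CPM in shOSGEP total RNA. Its RPF levels were 1338, 1497 and 1030.5 CPM and 1873, 1468 and 1014 CPM, and shOSGEP replicate 1 was the highest. Hsp90aa1, the inducible form, had 1102, 1420 and 1548 CPM in shCtr and 915, 1380.4 and 1517 CPM in shOSGEP total RNA, with replicate 1 lowest in each genotype. In RPF it had 568, 898 and 469.7 CPM against 722, 715 and 496 CPM, and the groups overlapped. The fitted changes in total RNA were 0.02 (95% interval −0.36 to 0.4) for Hsp90ab1 and −0.09 (95% interval −0.67 to 0.48) for Hsp90aa1. Hsp90aa1 counts were 0.624 ± 0.0766 times those of Hsp90ab1 in shCtr total RNA and 0.577 ± 0.129 times in shOSGEP (SD, n = 3), a difference within the SD. Of the 28-base stretches of Hsp90aa1, 63.9% are shared with other genes, and 21.2% of those of Hsp90ab1.

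Among the co-chaperones, Ptges3 (p23, which holds the closed form of Hsp90) had 293, 380.1 and 331 CPM in shCtr and 123, 369 and 301 CPM in shOSGEP total RNA. In RPF it had 80.8, 96.3 and 62.7 CPM and 36.5, 85.8 and 40.9 CPM. Each replicate gave a lower shOSGEP value in total RNA and in RPF, most of all replicate 1, though the groups overlapped. The fitted changes were −0.34 (95% interval −1.24 to 0.56) and −0.55 (95% interval −1.5 to 0.39), and −0.01 and −0.34 without the shOSGEP replicate 1 libraries. Fkbp4 (FKBP52, a co-chaperone of steroid receptors), singled out after its values were seen, had RPF levels of 237, 207 and 209.6 CPM in shCtr and 161, 202 and 173 CPM in shOSGEP, with every shOSGEP library lower. Its RPF change was −0.29 (95% interval −0.94 to 0.37) with an edgeR adjusted p of 0.9998. In total RNA the groups of Fkbp4 overlapped, with changes of −0.84, −0.05 and 0.02 in replicates 1, 2 and 3.

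Chordc1 (Morgana), a heat-inducible partner of Hsp90, had 36.5, 54.7 and 54.7 CPM in shCtr and 36.1, 58.5 and 54.9 CPM in shOSGEP total RNA. Chordc1 RPF levels were 17.5, 21.1 and 15.6 CPM and 20.8, 18.6 and 16.1 CPM, which overlapped throughout. Stip1 (HOP), St13 (HIP), Ahsa1 (the activator of the Hsp90 ATPase) and Cdc37 (the kinase adaptor) had fitted total RNA changes of 0.01, −0.03, −0.03 and −0.11 and RPF changes of −0.05, −0.02, −0.1 and 0.01, and none passed the test.

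Hspb1 (Hsp25), a small heat shock gene, showed the largest fitted change and the least certain. Its total RNA level was 4.1, 0.919 and 1.8 CPM in shCtr and 18.3, 1.54 and 1.52 CPM in shOSGEP. Replicate 1 of shOSGEP was high, and replicates 2 and 3 lay within the range of shCtr. The change was 1.64 (95% interval −0.94 to 4.22), with an edgeR adjusted p of 0.9745, and −0.58 without the shOSGEP replicate 1 library. In RPF the gene had 13, 8 and 8 counts in shCtr and 85, 0 and 0 in shOSGEP. Of the 28-base stretches of Hspb1, 57.5% are found elsewhere, all in the processed pseudogene Hsp25-ps1. That pseudogene had 0, 0 and 10 RPF counts in shCtr and 32, 5 and 20 in shOSGEP. Summed over both, the RPF counts were 13, 8 and 18 in shCtr and 117, 5 and 20 in shOSGEP, so the zeros of Hspb1 in shOSGEP replicates 2 and 3 came with counts on the pseudogene. Hspb8, the partner of Bag3, had 2, 9 and 9 counts in shCtr and 2, 10 and 5 in shOSGEP total RNA, and 0 to 3 in every RPF library.

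Hsf1 itself, the transcription factor of the response, stood at 65.1, 84.8 and 84.4 CPM in shCtr and 50.9, 83.5 and 86.2 CPM in shOSGEP total RNA. In RPF it had 14.4, 16.6 and 22.8 CPM and 8.67, 16.3 and 23.8 CPM. The lowest library in both assays was shOSGEP replicate 1, and the replicate 2 and 3 libraries of the genotypes were close. The fitted changes were −0.09 (95% interval −0.65 to 0.47) and −0.14 (95% interval −1.08 to 0.81). HSF1 is mainly governed through its protein, which these libraries do not measure.

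**Figure D4:**
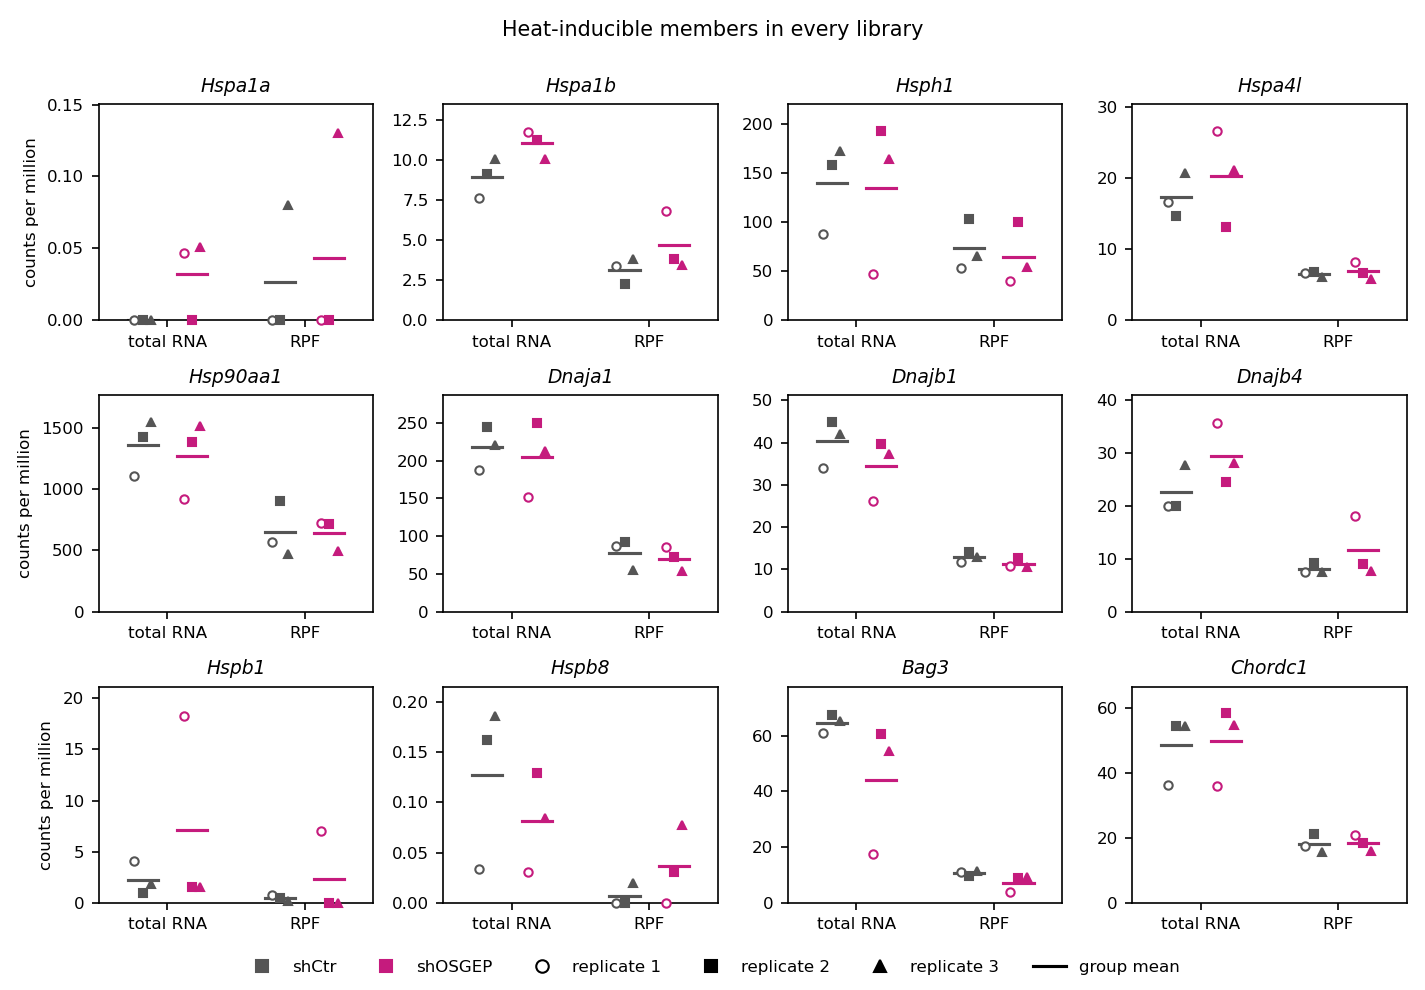
CPM of the 12 heat-inducible members in every library, with total RNA and RPF side by side, shCtr in grey and shOSGEP in magenta, 1 symbol per replicate number (open circles for replicate 1) and a bar for each group's mean; each panel has its own linear axis from 0. Apart from Bag3, the groups of each tested gene overlap in both assays. In total RNA the shOSGEP open circle is the lowest library for Bag3 (17.4 CPM), Hsph1 (46.8 CPM), Dnajb1, Dnaja1, Hsp90aa1 and Chordc1. It is the highest for Hspb1 (18.3 CPM), Dnajb4 (35.7 CPM), Hspa1b and Hspa4l.

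The 8 CCT subunits form a ring complex, and none passed the test. In total RNA all 8 had fitted changes just below 0, between −0.19 (Cct3) and −0.02 (Cct7), and the range in replicate 1 was −0.69 to −0.12 while replicate 2 gave −0.02 to 0.16 and replicate 3 −0.12 to 0.06. In RPF the fitted changes ran from −0.23 (Cct3) to −0.002 (Tcp1). Their 95% intervals in total RNA all included 0, and that of Cct8 ran from −0.39 to 0.27. Proportions among subunits were compared as well. Each subunit's TPM was divided by the mean over the 8, and Cct5 came to 1.81 ± 0.136 in shCtr and 1.8 ± 0.138 in shOSGEP, Cct7 to 0.979 ± 0.00565 and 1.02 ± 0.0737, and Cct3 to 0.349 ± 0.0212 and 0.314 ± 0.061 (SD, n = 3). Footprints per coding length, over 7 subunits, gave 1.69 ± 0.179 and 1.68 ± 0.108 for Cct7 and 0.441 ± 0.0448 and 0.455 ± 0.0637 for Cct4. Each of these pairs differed by less than the larger of its SDs. Cct6a is annotated as a processed transcript without a coding length in the annotation used.

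The 5 prefoldin subunits, which hand nascent actin and tubulin to CCT, had fitted total RNA changes above 0 of which none passed the test, from 0.0055 (Pfdn4) to 0.13 (Pfdn2). In RPF they ran from −0.02 (Vbp1) to 0.22 (Pfdn2), and all 5 were higher in replicate 1, 4 of 5 lower in replicate 2 and all 5 lower in replicate 3. In total RNA as well, 4 of 5 were lower in replicate 3. Pfdn2, singled out after its values were seen, had 35.8, 36.6 and 37.7 CPM in shCtr and 40.4, 39 and 41.5 CPM in shOSGEP total RNA. Every shOSGEP library was higher, as were those of 4.0% of all genes, and the difference was small, 0.13 (95% interval −0.16 to 0.43). In RPF its groups overlapped, at 25.7, 19.3 and 19.5 CPM and 36.2, 20.2 and 18.7 CPM. Relative to the mean over 6 subunits, Pfdn6 included, Pfdn2 came to 0.663 ± 0.0298 in shCtr and 0.697 ± 0.0762 in shOSGEP TPM.

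Directions were counted over all members as well. In total RNA 5 members were lower in all 3 replicates (Bag3, Hspbp1, Dnajb1, Hsp90aa1 and Ptges3), where 16.2% of all genes were, and 2 were higher (Pfdn2 and Dnajb4), where 17.7% of all genes were. In RPF 10 were lower in all 3 replicates (Cct3, Hsph1, Bag3, Dnaja1, Dnaja2, Dnajb1, Dnajb6, Ahsa1, Fkbp4 and Ptges3), where 15.2% of all genes were, and Dnajc7 was higher, where 15.6% were. Same-numbered RNA and RPF libraries are taken to share a cell sample, so the assays are not counted as separate evidence. By replicate, 27 of 37 members were below 0 in replicate 1 in total RNA, 26 above 0 in replicate 2 and 26 below 0 in replicate 3, where 49.5, 51.9 and 49.6% of all genes were. In RPF 23 of 37 members were above 0 in replicate 1, 33 were below 0 in replicate 2 and 30 in replicate 3, where 49.3, 50.5 and 49.8% of all genes were.

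Translational efficiency asks whether the ribosome load per transcript changed. In shCtr the log2 ratio of RPF to total RNA CPM had a median of −1.42 over the members and −1.33 over all genes, and 22 of 37 members were below the latter. It ran from −2.59 ± 0.176 for Bag3 to −0.3 ± 0.677 for Pfdn4 (SD, n = 3). For Hspa1b, which had the smallest unadjusted p of the members by edgeR at 0.598, the log2 ratios were −1.16, −1.95 and −1.38 in shCtr and −0.78, −1.55 and −1.53 in shOSGEP, a fitted change of 0.24 (95% interval −0.72 to 1.19). For Dnajc7 they were −0.63, −0.69 and −1.15 in shCtr and −0.13, −0.92 and −0.97 in shOSGEP, with a change of 0.13 (95% interval −0.5 to 0.75). For Hspa4l they were −1.31, −1.09 and −1.75 in shCtr and −1.69, −0.98 and −1.84 in shOSGEP, with a change of −0.17 (95% interval −1.02 to 0.69). The groups overlapped for all 37 members, where they did not for 4.34% of all genes. Hspb1 had the largest fitted change, 0.69 (95% interval −4.59 to 5.96), which rests on the few RPF counts given above.

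Efficiency changes of most members shared a sign within each replicate, and the sign differed between replicates. In efficiency 35 of 37 were above 0 in replicate 1, where 50.8% of all genes were, and 31 were below 0 in replicate 2 and 27 in replicate 3, where 52.2% and 52.1% of all genes were. Without the cell sample shOSGEP replicate 1, 36 of 37 fitted efficiency changes were below 0, still with 0 calls. Without shOSGEP replicate 3 instead, 34 of 37 were above 0, again with 0 calls. The medians over all genes in these runs were −0.0139 and −0.004. The replicate 1 shOSGEP RPF library is the one with 67.6% rRNA counts, and the part of that in the shift was not tested.

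Since t6A serves ANN codons, the share of such codons was computed for each coding sequence. It was 30.1% at the median of 36 members, from 14.89% (Hspbp1) to 36.36% (Pfdn1), and 26.77% over 11241 genes. Over these members its Spearman correlation with the fitted efficiency change was −0.14, and 0.052, −0.26 and 0.00077 with the changes in replicates 1, 2 and 3. Pearson correlations were −0.39, and −0.27, 0.35 and 0.31. A link of the share to efficiency was not tested.

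Beyond the members, 52 other chaperone and heat shock genes were listed, among them further J-domain, Bag and small heat shock genes, Hsp90 co-chaperones and prefoldin-like subunits. In total RNA 50 were tested, 0 were called by edgeR, 22 had fitted changes above 0 and 28 below, and the median was −0.035. In RPF the median over 49 was 0.034 and in efficiency 0.092 over 48, again with 0 calls. At an unadjusted p under 0.05 there were 3 in total RNA, 1 in RPF and 0 in efficiency, where 1.78, 1.03 and 0.135% of all genes were. Hspb7, a muscle small heat shock gene, had 0.527, 0.18 and 0.434 CPM in shCtr and 12.1, 0.568 and 1.08 CPM in shOSGEP total RNA. Hspb6 (Hsp20) had 11.7, 8.95 and 13.4 CPM and 137, 12.9 and 15.1 CPM. Cdc37l1, a relative of Cdc37, had 28.1, 35.5 and 49.0 CPM and 58.1, 47.9 and 59.6 CPM. Each of these 3 genes was higher in shOSGEP in every replicate, by 4.44, 1.5 and 1.25 for Hspb7, 3.54, 0.52 and 0.17 for Hspb6 and 1.05, 0.43 and 0.28 for Cdc37l1 on the log2 scale, most in replicate 1. The groups of Hspb7 did not overlap, and those of Hspb6 and Cdc37l1 did. The fitted changes were 3.59, 2.27 and 0.56, with an edgeR adjusted p of 0.9745 for each, and 1.1, 0.29 and 0.51 without the shOSGEP replicate 1 library. In RPF Dnajb5, a J-domain gene, had 2.08, 1.64 and 3.49 CPM in shCtr and 7.84, 3.37 and 7.31 CPM in shOSGEP. It was higher in 3 of 3 replicates, though the groups overlapped. The change was 1.35 (95% interval 0.22 to 2.47), with an edgeR adjusted p of 0.9998. In total RNA it was 1.03 (95% interval −0.29 to 2.36). Without the shOSGEP replicate 1 libraries the changes were 1.13 in RPF and 0.1 in total RNA.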

How the data were processed

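Per the labels and methods, the authors treated cells with cycloheximide, digested lysates, captured ribosomes with a puromycin analogue and size-selected the fragments. The submitters' processing notes name FastQC 0.11.9, Trim Galore 0.6.6, cutadapt and STAR (the version is listed as 3.0), with GRCm38 and GRCm39, and the build behind the tables is uncertain. The values deposited were raw counts of reads for each Ensembl gene ID, not normalised. The counting step, its strand setting, its treatment of reads with several matches and the total RNA kit are not given in the sources used here. Symbols and GRCm38 coordinates came from GENCODE M21, in which 55141 of 55487 gene IDs were found.

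Counts were fitted in R 4.3.3 with edgeR 4.0.16 (filterByExpr, TMM, quasi-likelihood test, Benjamini-Hochberg adjustment over all genes tested, threshold 0.05), RPF and total RNA apart. Efficiency was the interaction of assay and genotype over 12 libraries, with TMM within each assay. CPM used TMM library sizes, log2 CPM a prior count of 2, and changes per replicate are differences in log2 CPM between same-numbered libraries, with no test of their own. Intervals use the spread and degrees of freedom of the same fit. The script was tested on simulated data. Alternatives were other scaling (RLE), other filters, DESeq2 1.42.0, protein-coding genes only, a replicate block and leaving out libraries. In efficiency the block was the cell sample, which pairs its RPF and total RNA libraries, and not the replicate number.

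Replicate numbers came from the labels. Within an assay, the deviations of a shCtr and a shOSGEP library with 1 number (each taken from its group's mean) had correlations over genes of 0.515, 0.542 and 0.287 for total RNA and of 0.586, 0.508 and 0.665 for RPF, so the samples were taken as paired in the block. The main fits and their intervals did not use this pairing, nor did the block in efficiency. No library was a copy of another within sampling noise.

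The members and gene lists were chosen with earlier results of these data known. Values in every library are given for the heat-inducible members, Hspa8, Hsp90ab1, Hsf1 and the 3 members with the smallest unadjusted p in each comparison, and other listed chaperone genes are named where that p was under 0.05.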

Additional observations from a re-analysis of the deposited data

How the results depend on the processing

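No chaperone member was called by edgeR or DESeq2 under any alternative run or with any library left out. The median change of the members in RPF ran from −0.229 (without shCtr replicate 3) to 0.149 (without shOSGEP replicate 3). With the block, by replicate in total RNA and RPF and by cell sample in efficiency, 0 members were called. The medians were then −0.055, −0.107 and −0.03 in total RNA, RPF and efficiency, and Hspb1 turned to −0.68 in RPF and −1.08 in efficiency. The block changed no call among the members. At an unadjusted edgeR p under 0.05 it gave 0, 1 and 0 members in total RNA, RPF and efficiency, and 449, 549 and 76 of all genes. Hsp90aa1 in RPF, near 0, turned to 0.0072 with RLE scaling and with DESeq2, 0.01 with at least 10 counts in every library and with protein-coding genes alone, and 0.03 with the block. Without the filter Hsp90ab1 in total RNA was −0.0004, Hspa4l in RPF 0.0 and Chordc1 in RPF −0.03, and Hspb6 in RPF, which is no member, was called at 2.76 among 229 genes, where the filtered fit called 0. The cause of these differences was not tested. Some genes, all with levels in single libraries given above, were followed singly, in 47 results (1 gene in 1 assay each). Of their values, 272 kept direction and side of the threshold and 10 turned sign when a setting other than the libraries was changed. The CCT subunits, Hspa4, Hspbp1, Dnaja2, Dnajb6, Stip1, St13, Ahsa1, Cdc37 and the prefoldin subunits other than Pfdn2 were not followed singly. Some of these turned sign as well when libraries were left out. In total RNA 14 of 37 members were above 0 in the main fit and 27 without shOSGEP replicate 1. Among the genes followed singly, the fitted log2 changes that turned sign when libraries were left out ranged as follows. In total RNA they were Hsph1 (−0.41 to 0.34), Hspa4l (−0.05 to 0.45), Hsp90aa1 (−0.26 to 0.09), Dnaja1 (−0.26 to 0.08), Hspb1 (−0.58 to 2.39), Chordc1 (−0.13 to 0.21), Hspa8 (−0.27 to 0.1), Hsp90ab1 (−0.06 to 0.07), Hsf1 (−0.23 to 0.11), Dnajc7 (−0.11 to 0.18) and Fkbp4 (−0.43 to 0.04). In RPF they were Hsph1 (−0.66 to 0.12), Hspa4l (−0.08 to 0.17), Hsp90aa1 (−0.19 to 0.3), Dnaja1 (−0.35 to 0.0059), Dnajb4 (−0.03 to 0.75), Hspb1 (−6.81 to 2.98), Chordc1 (−0.09 to 0.15), Hspa8 (−0.33 to 0.14), Hsp90ab1 (−0.06 to 0.37), Hsf1 (−0.52 to 0.15), Pfdn2 (−0.15 to 0.38) and Hspb6 (−0.26 to 3.43). In efficiency only Osgep, Hspa1b, Dnajc7, Hspa4l and Hspb1 were followed through all these runs. Those that turned were Hspa1b (−0.07 to 0.43), Hspb1 (−6.95 to 1.28) and Dnajc7 (−0.13 to 0.32). Further members turned there without the shOSGEP replicate 1 libraries, among them Hsp90ab1 (from 0.15 to −0.13), Hsp90aa1 (from 0.09 to −0.19) and Hsf1 (from −0.06 to 0.04). Fits of Hspb1 against libraries at 0 counts are no bound. The precision limits the RPF values more, since 17 of 37 intervals lay within a 2-fold change there and 33 of 37 in total RNA.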
